A study of Mus musculus with 2 samples.

Results

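The cytosolic ribosomal protein genes encode the protein part of the ribosomes that work outside mitochondria. Members were taken by gene symbol alone, as the probe sets whose single symbol is an Rpl or Rps number, with Rplp0, Rplp1, Rplp2 and Rpsa, and without pseudogene symbols or the Rps6 kinases. This rule used no measured value, but it was chosen with earlier results of these data known. It gave 67 of the 22180 genes measured, 25 of the small subunit and 42 of the large subunit. Liver RNA of male E4bp4-LKO mice and of male WT mice was compared, both genotypes having been given a high-fat diet for 12 weeks from 2 months of age. Each genotype was 1 pool of RNA from several mice on 1 whole-transcript array, so no value has a replicate error, no test of genotype was possible, and each difference describes these 2 pools. The sources used here state neither the Cre line or promoter behind the E4bp4-LKO genotype, nor how many mice a pool held, nor when in the day livers were taken. E4BP4, a leucine zipper repressor encoded by Nfil3, gave a level of 4.47 in the E4bp4-LKO pool and 5.94 in the WT pool, a log2 difference of -1.47. Levels are log2 intensities, and differences are E4bp4-LKO minus WT.

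Each ribosome holds a single copy of nearly every ribosomal protein, and cells keep the messenger RNAs of these proteins at matched amounts. Most of these messenger RNAs begin with a terminal oligopyrimidine (TOP) tract, a C followed by further C and T letters, through which the kinase mTORC1 and the binding protein LARP1 set how strongly they are translated. The liver makes large amounts of secreted protein and is rich in ribosomes. E4BP4 itself binds the D-box, an element shared with the activators DBP, TEF and HLF.

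Gene starts are shown for 8 members with a TOP tract, the feature these messenger RNAs are best known for, and for Rps13, Rps25 and Rps23, which had the highest differences. RefSeq promoter sequences (build GRCm38.p6, 250 bases before to 50 bases after the annotated start) were matched for 52 of the 67 members, with 61 starts in all. Each line below shows 10 bases before the start and the 20 bases from it, 5′ to 3′ on the gene's strand. Capitals mark the TOP tract, counted where the first base of the transcript is a C followed by at least 4 pyrimidines.
Rps6 (chr4:86857348-86857377, minus strand): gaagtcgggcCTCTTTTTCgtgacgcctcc
Rps10 (chr17:27635225-27635254, minus strand): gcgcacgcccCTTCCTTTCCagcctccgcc
Rps27 (chr3:90213629-90213658, minus strand): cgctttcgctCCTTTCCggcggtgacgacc
Rpl15 (chr14:18270967-18270996, minus strand): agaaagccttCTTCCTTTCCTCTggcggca
Rpl28 (chr7:4792955-4792984, plus strand): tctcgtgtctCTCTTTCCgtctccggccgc
Rpl35 (chr2:39005112-39005141, minus strand): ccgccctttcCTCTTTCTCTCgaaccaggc
Rpl38 (chr11:114668570-114668599, plus strand): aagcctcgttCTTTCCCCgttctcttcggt
Rplp2 (chr7:141447641-141447670, plus strand): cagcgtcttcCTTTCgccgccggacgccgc
Rps13 (chr7:116334171-116334200, minus strand): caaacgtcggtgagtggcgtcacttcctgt
Rps25 (chr9:44407704-44407733, plus strand): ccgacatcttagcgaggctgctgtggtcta
Rps23 (chr13:90923112-90923141, plus strand): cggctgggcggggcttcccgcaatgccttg

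A TOP tract exactly at the annotated start was present at 11 of the 61 member starts (18.0%), against 2.51% of all 32851 promoters in the table. The other members with such a start were Rpl14, Rpl32l and Rps18. A tract that begins at another base than the annotated start was not counted. The motif CCGGAAGT, bound by ETS factors, was found on either strand in 11 of the 61 member promoters (18.0%), against 3.89% of all promoters. The E-box CACGTG, bound by MYC among others, was found in 6 member promoters (9.84%, against 7.15% of all promoters), which belong to 4 genes (7.69% of members with a promoter, against 9.19% of array genes), and AAGATGGC, bound by YY1, in 3 (4.92%, against 2.75%), both searched on either strand. The D-box letters TTACGTAA or TTATGTAA, searched on both strands, were found in 1 member promoter (1.64%), against 1.06% of all promoters. That promoter is shown because it is the only member match to the element of the deleted factor, with the D-box in capitals, 64 bases before the start.
Rpl39l (chr16:10170153-10170182, plus strand): tagcgcttgctTTACGTAAtccgcgcctgc

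Most ribosomal protein genes were slightly higher on the E4bp4-LKO array. Of the 67 members, 56 (83.6%) had a difference above 0, against 47.6% of all genes measured. The median member difference was 0.19 on the log2 scale (1.14-fold, SD between members 0.27), against -0.011 over all genes. At least 1.2-fold higher were 24 members (10.8% of all genes were that much higher), while 12% of all genes were lower by that much, as were 3 members. At least 1.5-fold higher were 6 members, where 1.33% of all genes were, and none was at least 1.5-fold lower, where 1.65% of all genes were. Most members thus differed in one direction, by less than 1.2-fold for the median member. The members are not replicates of the genotype, since all were read from the same 2 pools.

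**Figure D1:**
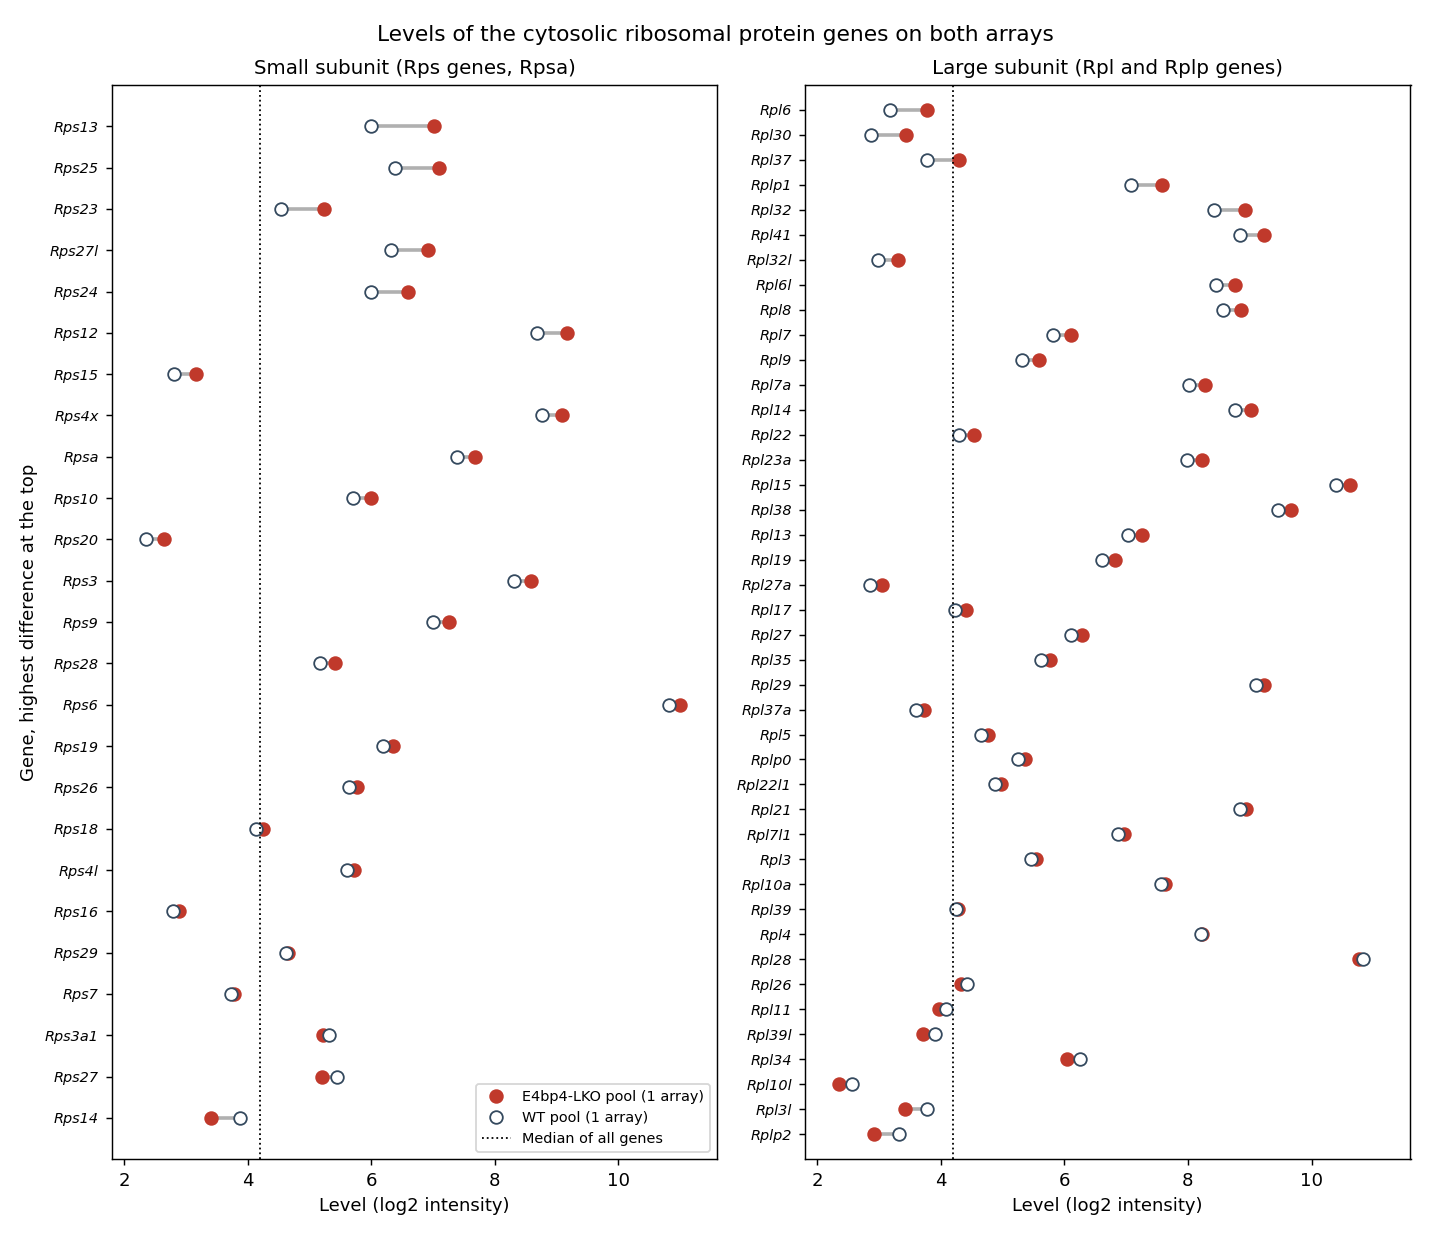
Level of each of the 67 members on both arrays, in log2 intensity, with the small subunit on the left and the large subunit on the right, ordered by difference. Filled points are the E4bp4-LKO pool, open points the WT pool, and the dotted line is the median level of all genes (4.20). The filled point lies to the right of the open one for 56 members.

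Small subunit proteins form the part of the ribosome that reads the messenger RNA. Their median difference was 0.26 (25 members, 22 above 0), and that of the large subunit, which joins the amino acids, was 0.18 (42 members, 34 above 0). The medians were 0.087 apart, a gap that could not be tested, and the SD between members was 0.31 in the small and 0.23 in the large subunit. At the top of the small subunit was Rps13, at 7.01 in the E4bp4-LKO pool and 5.99 in the WT pool, a difference of 1.02. Rps25, a protein needed for initiation at several internal ribosome entry sites, followed with 7.10 against 6.39, a difference of 0.72. Rps23, which lines the decoding centre, lay at 5.23 against 4.54, a difference of 0.69.

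Rps27l, a p53-inducible paralog of Rps27, lay at 6.91 in the E4bp4-LKO pool and 6.32 in the WT pool (0.59). Rps24, one of the genes mutated in human Diamond-Blackfan anaemia, an inherited failure of red cell production, lay at 6.59 against 6.00 (0.59). With Rpl6 (0.60) these are the 6 members that differed by at least 1.5-fold. Rpl6 was dim on both arrays, at 3.79 against 3.18. The single-symbol values of Rps13 and Rps25 were not matched in size by other probe sets that name them together with other genes. Those of Rps13 numbered 3, all below the median level of all genes, with differences of 0.07 to 0.44, and the one of Rps25, shared with Ccdc84, had a difference of -0.16. With such probe sets averaged in, the differences were 0.44 for Rps13, 0.28 for Rps25 and 0.23 for Rpl30.

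In the large subunit, Rpl30 (0.56) and Rpl37 (0.52) came next after Rpl6. Rpl30 lay at 3.44 in the E4bp4-LKO pool and 2.88 in the WT pool, and Rpl37 at 4.29 against 3.77, so both were dim. Bright probe sets that name Rpl30 with other genes lay at 9.58 against 9.52 (0.055) and at 8.30 on both arrays (0.00037). A dimmer shared one differed by 0.30. Rpl32 was bright, at 8.92 against 8.43, with a difference of 0.49. Rpl41, a very short protein, lay at 9.23 against 8.84 (0.39), and Rpl8, next to the peptidyl transferase centre, at 8.86 against 8.56 (0.30). The E4bp4-LKO value was the higher for each of these genes.

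The stalk of the large subunit recruits elongation factors and is built from Rplp0, Rplp1 and Rplp2. Rplp1 lay at 7.58 in the E4bp4-LKO pool and 7.07 in the WT pool, a difference of 0.51. Rplp0, the anchor of the stalk, lay at 5.36 against 5.25 (0.11), the average of a bright probe set (0.34) and a dim one (-0.12). Rplp2 went the other way, at 2.92 against 3.32 (-0.40), but its probe set was dim on both arrays. A second probe set that names Rplp2 together with the small nucleolar RNA Snora52 lay at 7.61 against 6.54, a difference of 1.07, and with it averaged in Rplp2 stood at 0.34. The stalk genes therefore had no common direction by averages of single-symbol probe sets. The directions of Rplp0 and Rplp2 depended on the probe set read. At the brightest probe set of any kind, Rplp0 (0.34), Rplp1 (0.27) and Rplp2 (1.07) were all above 0.

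Of the members named next for a role in signalling, disease or p53 control, Rpl11 alone was below 0 by single-symbol probe sets. Rps6, the substrate of the S6 kinases downstream of mTORC1, lay at 10.99 in the E4bp4-LKO pool and 10.81 in the WT pool (0.18). Rps19, the gene most often mutated in human Diamond-Blackfan anaemia, lay at 6.35 against 6.19 (0.16), and Rps26, another gene of that disease, at 5.77 against 5.65 (0.12). The 3 probe sets of Rps19 held 2 distinct readings, 0.33 at the bright and -0.19 at the dim one. With identical probe sets counted once, Rps19 stood at 0.069. Rpl5 and Rpl11, which restrain the p53 inhibitor MDM2 when ribosome assembly fails, lay at 4.76 against 4.65 (0.12) and at 3.98 against 4.08 (-0.10). A probe set of similar brightness that names Rpl5 with another gene lay at 4.64 in the E4bp4-LKO pool and 4.93 in the WT pool (-0.29), and with it averaged in Rpl5 stood at -0.088. Rpsa, which shares its protein with the laminin receptor, lay at 7.69 against 7.39 (0.29). None of these reached 1.5-fold, and Rpsa was the only one past 1.2-fold.

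The brightest members, by the average of their single-symbol probe sets, stayed close to the group. After Rps6 these were Rpl28, at 10.76 in the E4bp4-LKO pool and 10.83 in the WT pool (-0.066), Rpl15, at 10.63 against 10.40 (0.23), Rpl38, which aids the translation of Hox messenger RNAs, at 9.67 against 9.45 (0.22), and Rpl29, at 9.23 against 9.10 (0.14). Averaging with dim probe sets kept other genes off this list. Among them were Rpl4 and Rpl21, whose brightest probe sets lay at 11.41 against 11.32 (0.097) and 11.10 against 11.03 (0.066). The intensity of a probe set also depends on its probe sequences, so brightness does not rank the genes by expression. Rpl28 was the only one of the 28 members above the 75th percentile of level (6.28) whose E4bp4-LKO value was the lower.

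Lower on the E4bp4-LKO array were 11 members, and 6 of them lay below the median level of all genes. Rps14, lost in a form of human myelodysplasia, was the lowest, at 3.42 against 3.87 on the WT array (-0.45). Rps27, a zinc finger protein of the small subunit, lay at 5.20 against 5.45 (-0.25), and Rpl34 at 6.05 against 6.26 (-0.21). Rps3a1 (-0.11) and Rpl26 (-0.085), which also binds p53 messenger RNA, differed by less. For several of these genes, brighter probe sets that name the gene with a pseudogene or copy were higher instead. For Rps27, shared with Rps27rt, such a probe set lay at 9.65 against 9.24 (0.41). For Rpl34, shared with Rpl34-ps1, it lay at 10.84 against 10.45 (0.39), and for Rpl26, shared with Gm15772, at 9.81 against 9.37 (0.44). With these averaged in, the differences were 0.078 for Rps27, 0.093 for Rpl34 and 0.18 for Rpl26, so the sign of each turned.

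**Figure D2:**
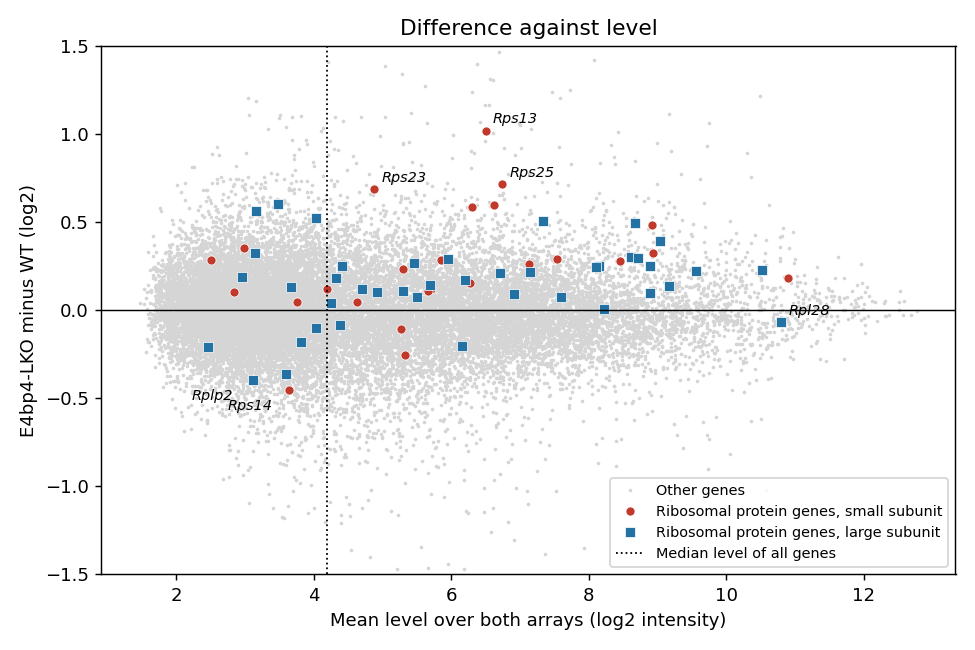
Difference (E4bp4-LKO minus WT, log2) against the mean level over both arrays, for the members by subunit and for the other genes in grey, with the median level of all genes dotted. Members to the right of level 6.28 lie above 0 with 1 exception, Rpl28; 23 other genes lie beyond the axis limits of 1.5.

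The share of members above 0 differed with their level. Up to the median level of all genes, 11 of 17 members were above 0, with a median of 0.12, while 49.8% of all genes that dim were. From there to the 75th percentile, 18 of 22 were above 0 (median 0.12), from the 75th percentile to level 8, 11 of 11 (median 0.29), and above level 8, 16 of 17 (median 0.25). The medians of all genes in the last 3 ranges were -0.028, -0.020 and -0.015. Members above the median level of all genes numbered 50, of which 45 were above 0, against 45.5% of all genes above that level. Across the 67 members, level and difference correlated weakly (Pearson r = 0.23, Spearman rho = 0.26), as a description of points that share both arrays.

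Probe sets of the same gene show this within genes. The 67 members rest on 108 probe sets, 101 of them with distinct values, and 24 members have at least 2 distinct ones. At the brightest probe set, 24 of these 24 genes were above 0, with a median of 0.35. At the dimmest, 15 of 24 were, with a median of 0.098. Genes outside the group were not read in this way, so the contrast has no share over all genes beside it. Rps3a1 lay at 8.50 in the E4bp4-LKO pool and 8.13 in the WT pool at its bright probe set (0.37), and at 1.93 against 2.51 at its dim one (-0.58). Rpl3, a protein next to the peptidyl transferase centre, lay at 7.41 against 6.78 (0.63) and at 3.33 against 3.95 (-0.62) in the same way. The bright probe set had the larger difference in 20 of the 24 genes. The exceptions were Rpl13, Rpl21, Rpl29 and Rplp1, the last with 0.27 at its bright and 0.74 at its dim probe set. The standard deviation between probe sets of a gene, pooled over the 24 genes, was 0.31, and in single genes it ran from 0.025 for Rps12 to 0.67 for Rps3a1.

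**Figure D3:**
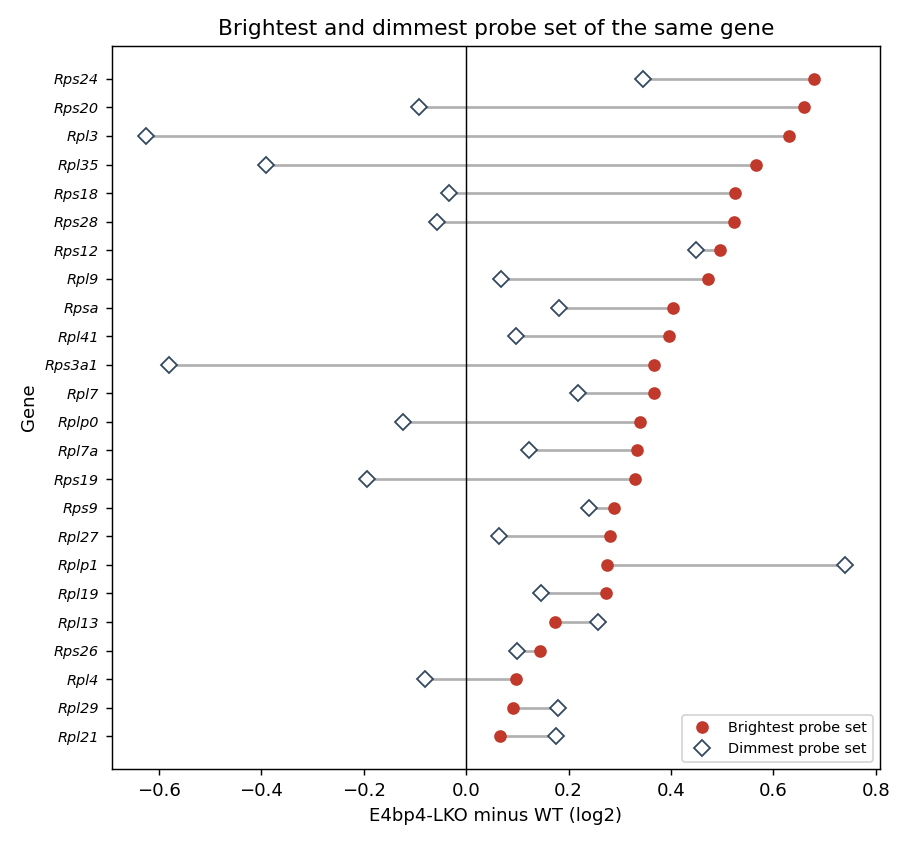
Difference (E4bp4-LKO minus WT, log2) at the brightest probe set (filled) and the dimmest probe set (open diamond) of the 24 members with at least 2 distinct single-symbol probe sets. The filled points all lie above 0, while 9 of the open ones lie below it.

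Over all distinct single-symbol probe sets, 31 of the 32 above level 8 had a difference above 0 (median 0.29), while 15 of the 28 up to the median level of all genes did (median 0.057). By gene averages, 45.6% of all genes above level 8 and 49.8% of those up to the median level were above 0. No share was counted over the probe sets of all genes, whether single-symbol or shared. Probe sets that name a member together with other genes were left out of the member values and give a separate reading. Of the 57, 46 were above 0, with a median of 0.22, and 19 of the 20 above level 8 were. Rpl13a, whose gene hosts several small nucleolar RNAs, was the exception, at 10.42 in the E4bp4-LKO pool and 10.59 in the WT pool (-0.17). Signal from pseudogene transcripts or near-identical copies cannot be separated from that of the gene at such probe sets. A single symbol does not exclude such signal either, also at the brightest probe sets. For example, 6 single-symbol probe sets of Rps12 held identical values, and some of Rpl23a and Rps19 did as well.

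Core ribosomal proteins were also counted from a list written after the values were seen, which includes the ubiquitin-like fusion Fau, and 59 of them had a single-symbol probe set. Another 12 had only probe sets shared with other symbols, among them Rpl12, Rpl23, Rpl31 and Rps2. When each of these 71 genes was read at its brightest probe set of any kind, a choice made after seeing the data, 66 were above 0 and the median was 0.29 (1.22-fold). The small subunit had 26 of 27 above 0 (median 0.35) and the large subunit 40 of 44 (median 0.25). All genes were not read in this way, so these counts have no matching share beside them. Rpl12, a protein at the base of the stalk, lay at 10.21 in the E4bp4-LKO pool and 9.63 in the WT pool (0.57). Rpl35a, another gene of Diamond-Blackfan anaemia, lay at 9.64 against 8.98 (0.66).

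Paralogs of ribosomal proteins, some of them confined to certain tissues, made up 9 members, of which 6 were above 0 (median 0.10, range -0.36 to 0.59). Rpl3l, which replaces Rpl3 in striated muscle, lay at 3.42 in the E4bp4-LKO pool and 3.78 in the WT pool (-0.36), while its parent Rpl3 differed by 0.076. The testis paralogs Rpl10l (2.36 against 2.57, -0.21) and Rpl39l (3.72 against 3.90, -0.18) were lower too. Their parents Rpl10, read from shared probe sets, and Rpl39 differed by 0.14 at the brightest probe set and by 0.039. Rpl3l, Rpl10l and Rpl39l all lay below the median level of all genes on both arrays, so their differences are uncertain.

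The other paralogs were above 0. Rpl22l1, which can replace Rpl22, differed by 0.10 and Rpl22 by 0.25. Rpl7l1, a factor of large subunit assembly, differed by 0.093 and Rpl7 by 0.29. Rps4l, annotated as a transcribed pseudogene, differed by 0.11 and Rps4x, its X-linked counterpart, by 0.32. Rpl6l, annotated as a pseudogene, lay at 8.77 against 8.46 (0.30), and Rpl32l at 3.32 against 2.99 (0.32). Rps27l (0.59) and Rps27 (-0.25) were the only pair of paralog and parent in which the paralog was above 0 and the parent below it by single-symbol probe sets. With its brighter shared probe set averaged in, Rps27 stood at 0.078.

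Members with and without a TOP tract at the annotated start had nearly equal medians. A tract that begins at another base was not counted, so the genes counted as without it may also hold one. The split therefore cannot compare messenger RNAs with and without a TOP tract. With the tract the median difference was 0.18 (11 genes, 8 above 0, from -0.40 to 0.32), against 0.19 for the other 41 genes with a promoter (34 above 0). Rps6, Rps10 (0.28), Rpl15, Rpl35 (0.14) and Rpl38 of the printed starts were above 0, and Rpl28, Rps27 and Rplp2 below it. With probe sets shared with other genes averaged in, Rpl28 (0.16), Rps27 (0.078) and Rplp2 (0.34) were above 0 too, so the count and the lower end of the range rest on the probe sets read. For Rpl28 the shared probe set (5.01 against 4.62) was much dimmer than the single-symbol one (10.76 against 10.83), unlike for Rps27 and Rplp2. Members with the ETS motif had a median of 0.21 (11 genes) and those without it 0.17 (41 genes). Rpl39l, the only member with the D-box letters, was among the lower members and dim.

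Other lists of translation genes had smaller medians, each described over its genes above the median level of all genes. Cytosolic ribosomal protein genes had 45 of 50 above 0 (median 0.22) there. Mitochondrial ribosomal protein genes, which serve a separate ribosome, were nearest, with 55 of 66 above 0 and a median of 0.12. The highest of them were Mrpl20 (0.56), Mrpl54 (0.49), Mrpl14 (0.42) and Mrps21 (0.41). Other TOP messenger RNAs and cytosolic translation genes had 13 of 20 above 0 (median 0.053). Fau, whose protein yields a small subunit member, was higher by 0.40, the initiation subunit gene Eif3m by 0.34 and Naca, a chaperone at the ribosome exit, by 0.33. The histone chaperone gene Nap1l1 was at -0.44.

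Translation initiation factors had 8 of 23 above 0 and a median of -0.036, with Eif1a (0.41), Eif3i (0.34), Eif1ax (0.34) and Eif3j1 (-0.29) farthest from 0. Ribosome biogenesis factors had 29 of 56 above 0 and a median of 0.010. Nip7 (0.47), Gnl3, which encodes nucleostemin (0.35), and Emg1 (0.31) were the highest, and Noc4l (-0.30) was the lowest. RNA polymerase I and III genes, whose products transcribe ribosomal and transfer RNA, had 14 of 24 above 0 and a median of 0.018, with Polr1d at 0.43, Polr3a at -0.39, Polr3b at -0.30 and Znrd1 at 0.29. The difference of these lists from the ribosomal protein genes could not be tested with 1 array per genotype.

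Genes of mTORC1 and of TOP control had 9 of 21 above 0 (median -0.038). Ddit4, an inhibitor of mTORC1, was the only member of any of these translation lists past 1.5-fold, at 6.44 in the E4bp4-LKO pool and 5.58 in the WT pool (0.87). Mtor lay at 7.28 against 7.63 (-0.35), and Myc, which drives ribosome production, at 5.92 against 6.31 (-0.39). Mlst8, a subunit of the mTOR complexes, differed by -0.35. Genes of ribosome rescue and hibernation had 6 of 15 above 0 (median -0.025), with Ccdc124 at -0.38, Eif2ak4, the ribosome-linked kinase GCN2, at -0.28, Ifrd2 at -0.25 and Ltn1 at -0.24.

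**Figure D4:**
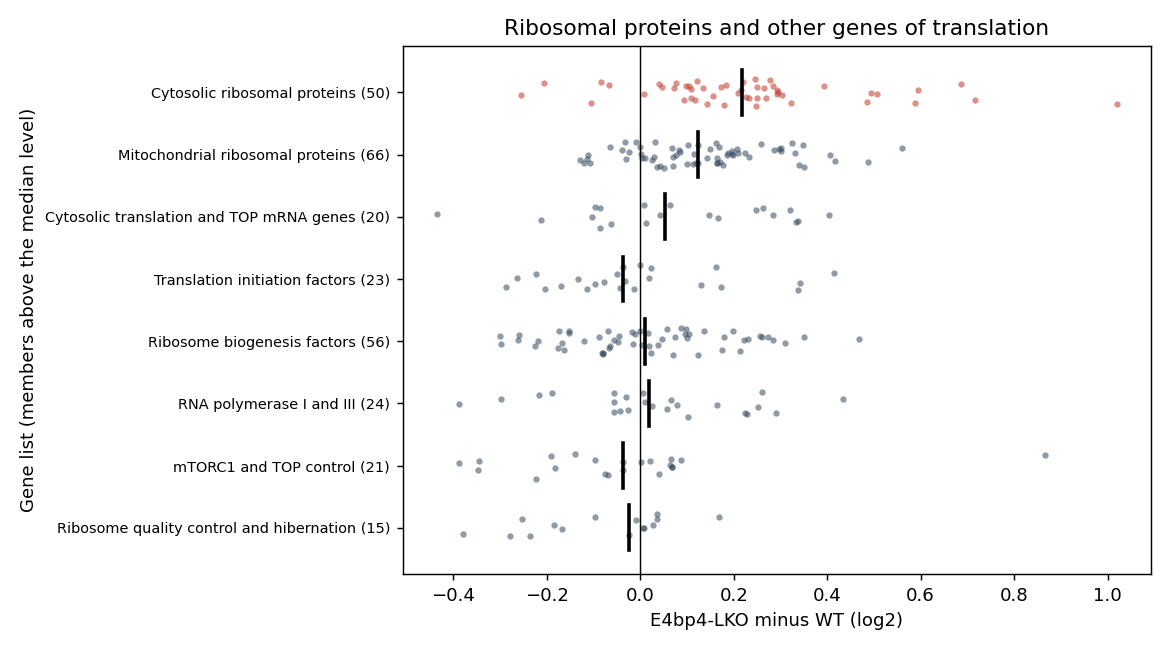
Difference (E4bp4-LKO minus WT, log2) of each gene above the median level of all genes, for the cytosolic ribosomal proteins in red and 7 other lists of translation genes in blue, with the number of genes in brackets and a bar at the median. The medians run from 0.22 for the cytosolic and 0.12 for the mitochondrial ribosomal proteins to -0.038 for mTORC1 and TOP control.

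Markers of the cell types in the pools also differed, and fewer cells of a type cannot be told apart from less RNA per cell in bulk RNA. Sums below are linear intensities of the markers above the median level of all genes. Hepatocyte markers were bright in both pools, with a sum of 32900.1 in the E4bp4-LKO pool and 31822 in the WT pool and 5 of 10 above 0 (median 0.037). Skeletal muscle markers were lower in 9 of 9 such markers (10 measured), with a sum of 382 against 747. The muscle paralog Rpl3l was lower too but dim on both arrays, as were the testis paralogs Rpl10l and Rpl39l. Stellate cell markers were lower in 10 of 10 (sum 1872 against 2430, Col3a1 -1.15) and proliferating cell markers in 9 of 9 (sum 520 against 724, Mcm5 -0.93). Endothelial markers were lower in 6 of 8 (sum 2092 against 2356, Lyve1 -0.52). T and NK cell markers were higher in 4 of 5 (9 measured, sum 172 against 139, Cd4 0.66). B cell markers were higher in 1 of 4 (7 measured, sum 245 against 259). Jchain differed by 0.63, while H2-Aa (-0.26), Cd79a (-0.18) and Ighm (-0.17) were lower. Macrophage markers were higher in 6 of 10 (sum 2454 against 2305), with Lyz2 at 0.40 and Cd68, the farthest from 0, at -0.43. The part of these cell types in the ribosomal protein difference was not tested.

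Short genes in general lay slightly higher on the E4bp4-LKO array, and ribosomal protein genes are short. Their span in the RefSeq annotation (GRCm38.p6) ran from 0.592 to 9.65 kb, with a median of 3.16 kb, and 56 of 67 spanned at most 5 kb. Among the other protein-coding genes above the median level, 57.3% of the 302 spanning up to 2 kb and 57.6% of the 865 between 2 and 5 kb were above 0, with medians of 0.034 and 0.032. The share was smallest, at 35.7%, among the 2856 genes over 50 kb, with a median of -0.063. Both short classes lay below the 90% of members above 0 and the median of 0.22 among members above that level. Across the 67 members themselves, span and difference correlated weakly (Pearson r = -0.13, Spearman rho = -0.14). The median difference was 0.12 for the 11 members over 5 kb and 0.22 for the 56 up to 5 kb, so the shorter members had the higher median, as in the other genes. Gene span is not the length of the messenger RNA, RNA integrity was not measured here, and the part of length in the member difference was not tested.

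**Figure D5:**
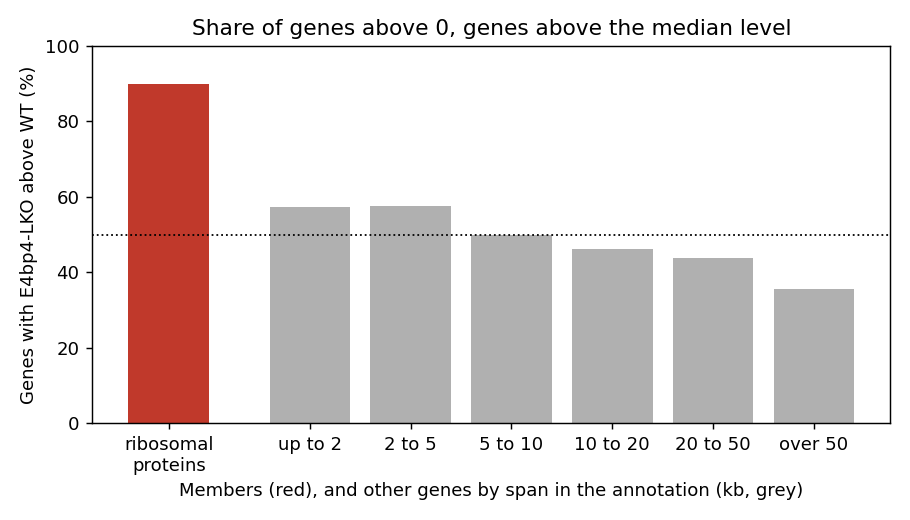
Share of genes with a difference above 0, among genes above the median level, for the ribosomal protein members (red) and for other protein-coding genes by gene span (grey, kb); the dotted line marks 50%. The members stand at 90%, the 2 shortest classes at 57.3% and 57.6%, and the longest at 35.7%.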

How the data were processed

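The deposited values are log2 intensities of 41345 probe sets on 2 arrays, 1 per genotype. Per the submitters' processing notes, RMA and R 3.4.0 were used; other settings were not stated. RMA equalises array distributions, so a shift of all genes would not be seen. No scanner files or detection calls were used, so depth is judged by level alone. Probe sets with 1 symbol in the platform annotation (23521; 1814 had several and 16010 none) were averaged per gene with pandas 2.3.3. Dim genes were judged against the median level over genes (4.20) and the 75th percentile (6.28). With 1 array per genotype no standard error or test exists, so folds of 1.2 and 1.5 serve as size thresholds. The intensity trend was a lowess curve (statsmodels 0.14.6, fraction 0.2). The summary code was checked on shuffled gene differences of these arrays, with known shifts added to some genes. Members, gene lists, motifs and naming rule were chosen with earlier results of these data known. By that rule, extremes of the member differences, bright members, stalk, disease and paralog genes, and up to 4 genes per other list are named; Rpl6l, Rpl8, Rpl26, Rpl32, Rpl32l, Rpl41, the genes with a TOP start and the genes on shared probe sets were added after their values were seen. Some core ribosomal protein genes are not reported here.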

Additional observations from a re-analysis of the deposited data

How the results depend on the processing

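The direction of the group median held under every alternative run. The median of the members lay between 0.19 and 0.27 on the log2 scale, and none was 1.5-fold lower in any of them. With the brightest probe set of each gene the median was 0.27 in place of 0.19. With a floor at the median level of all genes, 50 members were left, of which 5 were below 0 and 0 were 1.2-fold lower. With a floor at the 75th percentile, 28 were left: the median was 0.26, 27 were above 0 and 1 below, 14 were 1.2-fold higher and 0 were 1.2-fold lower, and the small subunit median lay 0.18 above that of the large subunit, against 0.087 without a floor. Fewer genes were in these counts. The floor at the median also left out 17 dim members, of which 6 were below 0 and 3 at least 1.2-fold lower. The cause of the shifts was not tested. Removing the intensity trend, centring the arrays, adding probe sets of several symbols, and, chosen after seeing the data, leaving out paralogs or repeated probe sets moved no median by 0.05 or more. Single genes moved by more than the 0.31 between probe sets for 5 members at the brightest probe set and for 5 others when shared probe sets were added. In the second case Rplp2 turned from -0.40, past 1.2-fold lower, to 0.34, past 1.2-fold higher, and Rps27 (0.078), Rpl34 (0.093), Rpl26 (0.18) and Rpl28 (0.16) were above 0 instead of below it, while Rpl5 (-0.088) was below 0 instead of above it. At the brightest probe set Rps3a1 (0.37) was above 0 instead of below it. No paired analysis was possible because each genotype has 1 array, and no replicate could be left out.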
